A study of Canis lupus familiaris with 8 samples.

Results

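MARCO and CD5L belong to a group of 10 tissue macrophage genes whose levels were followed through 8 canine endocrine gland libraries. The other genes of the group are CD163, C1QA, C1QB, C1QC, CSF1R, CD68, VSIG4 and MRC1. Rows were taken by gene symbol, and 9 of the 10 genes were found among 24580 Ensembl genes. MRC1 was not matched by that symbol and is not analysed here. MARCO and CD5L were set apart from the other 7 genes and were chosen by their FPKM difference between the breeds in these libraries, so the breed values below are a description and carry no test.

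The libraries are messenger RNA sequencing of dog glands, with 1 library for each combination of gland, breed and exposure. Chinese Field Dog and Beagle adrenal cortex and pituitary were sampled, each from animals labelled as treated with chronic stress exposure (stressed) and from animals labelled as non-disposal, which was read here as unexposed. All animals are labelled adult, and the labels state no treatment other than the stress exposure and no change of genotype. The labels do not say whether a library comes from 1 dog or from a pool, and a difference between breeds cannot be told apart from a difference between the individual animals sampled. The label text on RNA extraction names spleen, whereas titles and tissue labels name the 2 glands, which were used.

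Gene expression showed the labelled glands. The summed level of 4 cortical steroid genes was 11658 to 15592 FPKM (fragments scaled to gene length and library depth) in the adrenal libraries, and 8 pituitary marker genes summed to 82000 to 165569 FPKM in the pituitary libraries against 31.2 to 53.7 in the adrenal libraries. The low end is the unexposed Beagle pituitary, where GH1, the growth hormone gene, is listed at 0, against 73846 to 81835 FPKM in the other 3 pituitary libraries. The adrenal libraries also held medulla, since the chromaffin genes TH and DBH read 134 to 255 and 239 to 758 FPKM there. In the pituitary libraries they read 0.0374 to 0.397 and 0.0805 to 0.655 FPKM. All 5 listed chromaffin genes together summed to 3158 to 5482 FPKM in the adrenal and 1319 to 1671 FPKM in the pituitary libraries. Depth was 14327357 to 18712030 recovered reads per library. The stressed Chinese Field Dog pituitary stood apart through forebrain neuron genes, whose 7 members summed to 1577 FPKM, against 136 to 140 FPKM in the other 3 pituitary libraries, where 2 of the 7 were at 0.

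Macrophages are resident phagocytes of nearly every tissue and clear dying cells, old red cells and microbes. MARCO is a class A scavenger receptor on their surface that binds bacteria and particles, and CD5L is a secreted protein with scavenger-receptor cysteine-rich domains that circulates with IgM. In mice Marco marks macrophages of the splenic marginal zone, and Cd5l marks Kupffer cells of the liver. C1QA, C1QB and C1QC encode the chains of C1q, which starts the classical complement pathway. CSF1R is the receptor for the growth factors on which macrophages depend, CD163 takes up haemoglobin bound to haptoglobin, VSIG4 is a complement receptor of resident macrophages, and CD68 is a lysosomal glycoprotein. In bulk RNA, fewer cells of a type and less RNA per cell cannot be told apart.

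MARCO was measured at several FPKM in every Chinese Field Dog library and at the edge of detection in every Beagle library. The gene (ENSCAFG00000004913) lies on chromosome 19 from 30996185 to 31034536 in the CanFam3.1 build. In the adrenal cortex it read 7.76 FPKM in the stressed and 9.74 FPKM in the unexposed Chinese Field Dog, against 0.177 FPKM in the stressed and 0.197 FPKM in the unexposed Beagle. In the pituitary it read 5.74 FPKM in the stressed and 5.41 FPKM in the unexposed Chinese Field Dog, against 0.0812 FPKM in the stressed and 0.0381 FPKM in the unexposed Beagle. No Beagle library came near a Chinese Field Dog library in either gland.

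The Beagle values of MARCO rest on very few reads. The Chinese Field Dog libraries held 167 and 273 reads in the stressed and unexposed adrenal cortex and 142 and 146 in the stressed and unexposed pituitary, whereas the Beagle libraries held 4 and 4 in the adrenal cortex and 2 and 1 in the pituitary. The depth-corrected read ratio, Chinese Field Dog over Beagle, was 48.3 in the stressed adrenal cortex (95% counting interval 18.5 to 179) and 54.6 in the unexposed adrenal cortex (21.1 to 202). In the pituitary it was 78.4 under stress (21.3 to 654) and 142 without exposure (25.1 to 5659). These intervals cover counting error only, and the 4 of them overlap, so no order of the ratios between glands or exposures can be read from them. The 4 Beagle values likewise do not differ beyond counting error: the stressed over unexposed read ratio was 0.900 (0.168 to 4.83) in the Beagle adrenal cortex and 1.93 (0.1004 to 114) in the Beagle pituitary.

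CD5L showed the same split by breed, with a stronger dependence on the gland. The gene (ENSCAFG00000016447) lies on chromosome 7 from 40515317 to 40526634. In the adrenal cortex it read 20.6 FPKM in the stressed and 21.3 FPKM in the unexposed Chinese Field Dog, against 0.325 FPKM in the stressed and 0.549 FPKM in the unexposed Beagle. In the pituitary it read 2.76 FPKM in the stressed and 3.76 FPKM in the unexposed Chinese Field Dog, against 0.322 FPKM in the stressed and 0.0678 FPKM in the unexposed Beagle. The breeds did not overlap in either gland, and the lowest Chinese Field Dog value, in the stressed pituitary, was still above the highest Beagle value. The read counts were 756 and 1013 in the stressed and unexposed Chinese Field Dog adrenal cortex, against 15 and 19 in the Beagle adrenal cortex, and 124 and 188 in the Chinese Field Dog pituitary, against 13 and 3 in the Beagle pituitary.

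The read ratio of CD5L, Chinese Field Dog over Beagle, was 58.3 (35.1 to 105) in the stressed and 42.7 (27.2 to 71.2) in the unexposed adrenal cortex. It was 10.5 (5.94 to 20.3) in the stressed and 61.1 (20.6 to 299) in the unexposed pituitary. The stressed pituitary gave the lowest of the 4 ratios, and its interval lies below those of the other pairs. The Beagle pituitary held 13 reads under stress, against 3 without exposure, a read ratio of 4.18 (1.15 to 22.9).

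**Figure D1:**
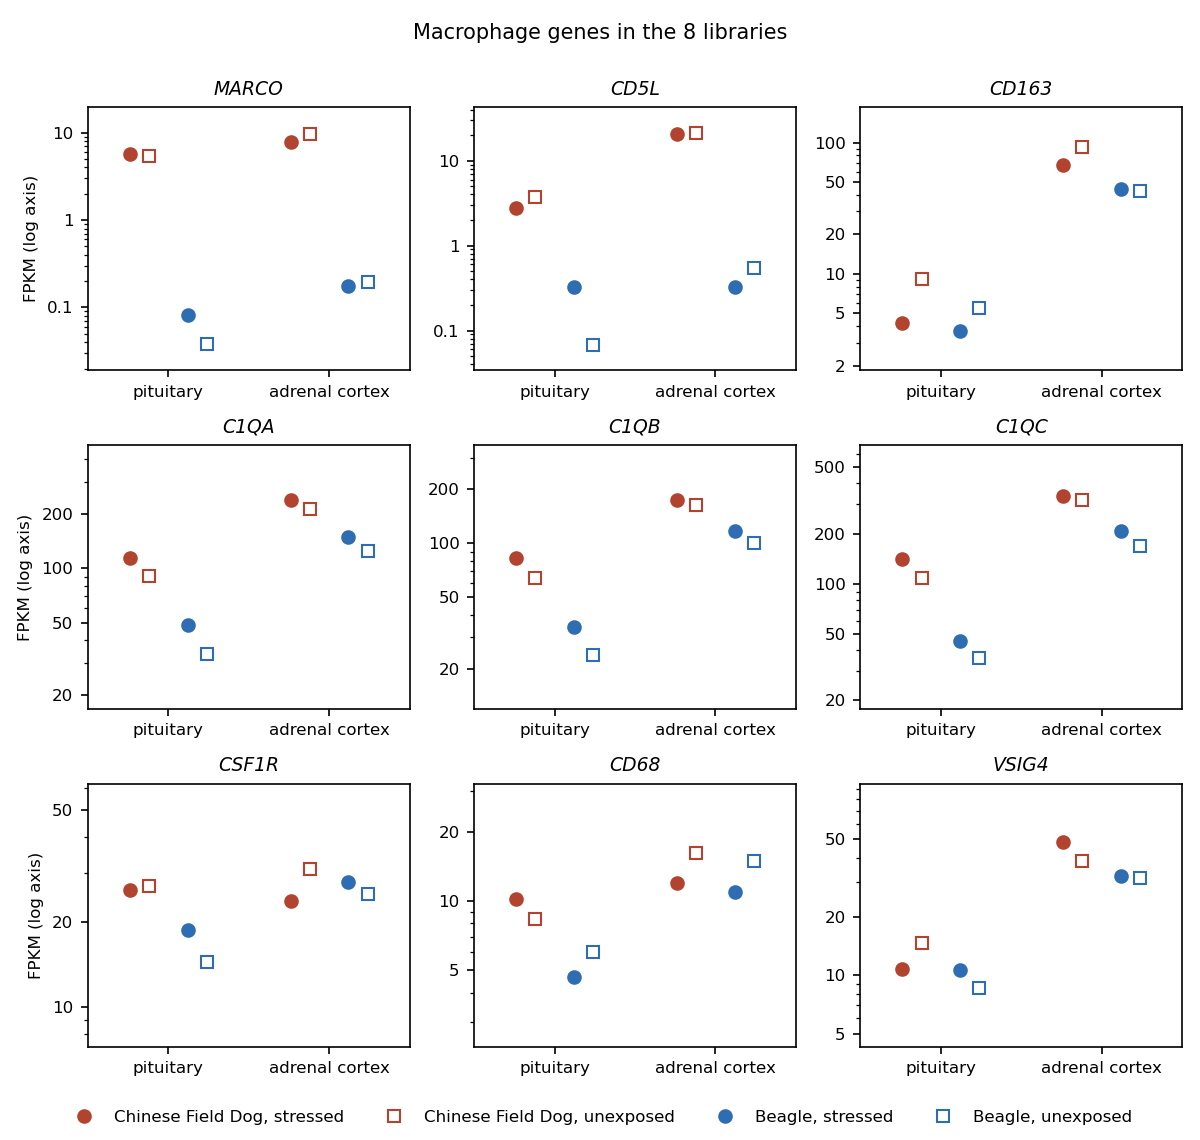
FPKM of the 9 measured macrophage genes in the 8 libraries, on log axes that differ between panels, with pituitary left of adrenal cortex, Chinese Field Dog in red left of Beagle in blue, filled circles for stressed and open squares for unexposed libraries. MARCO runs from 0.0381 to 9.74 FPKM and splits by breed, while CSF1R runs from 14.5 to 31.0 FPKM.

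The other 7 genes were present in both breeds in every library, at far smaller ratios between them. On the scale of log2(FPKM + 1), which understates changes of low values, the breed difference (Chinese Field Dog minus Beagle, mean of both exposures) in the adrenal cortex was 3.03 for MARCO and 3.93 for CD5L. The other 7 genes lay between 0.04 and 0.85, with a median of 0.64, and the median over all 14808 genes with a mean of at least 1 FPKM was -0.02. In the pituitary the difference was 2.63 for MARCO and 1.83 for CD5L. The other 7 genes lay between 0.36 and 1.60, with a median of 0.70, and the median of all genes was again -0.02. Ordered by this difference over all 14808 genes, MARCO stood at rank 56 and CD5L at rank 45 in the adrenal cortex, and at ranks 118 and 215 in the pituitary. The lowest difference in the separated pair, 1.83 for CD5L in the pituitary, lies close to the highest of the other 7 genes, 1.60 for C1QC in the same gland.

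Both Chinese Field Dog libraries exceeded both Beagle libraries for 5 of the 7 other genes in the adrenal cortex, where 18.1% of all genes did, and for 6 of the 7 in the pituitary, where 16.3% did. A log2 difference of at least 1 was reached by none of the 7 in the stressed adrenal cortex (1.57% of all genes) and by CD163 alone in the unexposed adrenal cortex (1.63%). In the pituitary the 3 C1q genes reached it both under stress (7.93% of all genes) and without exposure (1.97%). MARCO and CD5L reached it in all 4 pairs, as 27 of the 14808 genes did (0.182%). The stressed pituitary pair uses the Chinese Field Dog library that stood apart through forebrain neuron genes, whose part in the breed values was not tested. MARCO and CD5L passed the filter of 1 FPKM only through the Chinese Field Dog libraries, so they had to differ once they passed it.

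The C1q genes were the most abundant members and separated the breeds in each gland. They form a cluster of 20782 bases on chromosome 2, from 76649362 to 76670143, with C1QB (ENSCAFG00000032344), C1QC (ENSCAFG00000014639) and C1QA (ENSCAFG00000031290) in that order. C1QC, the highest of them, read 338 FPKM in the stressed and 316 FPKM in the unexposed adrenal cortex of the Chinese Field Dog, against 208 and 170 FPKM in the Beagle adrenal cortex. In the pituitary it read 142 FPKM in the stressed and 109 FPKM in the unexposed Chinese Field Dog, against 45.5 and 35.7 FPKM in the Beagle. The breeds did not overlap in either gland, and the read ratio, Chinese Field Dog over Beagle, was 1.62 (1.56 to 1.68) in the stressed and 1.87 (1.80 to 1.95) in the unexposed adrenal cortex, and 3.14 (2.94 to 3.36) in the stressed and 3.05 (2.83 to 3.30) in the unexposed pituitary.

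C1QA and C1QB followed C1QC closely. Their read ratios, Chinese Field Dog over Beagle, ran from 1.502 to 1.72 in the adrenal cortex and from 2.36 to 2.71 in the pituitary. The 3 subunits nevertheless did not keep 1 ratio to each other: C1QC stood at 1.92 and 1.94 times C1QB (FPKM) in the stressed and unexposed Chinese Field Dog adrenal cortex and at 1.78 and 1.68 times in the Beagle adrenal cortex, and at 1.72 and 1.70 times in the Chinese Field Dog pituitary against 1.32 and 1.49 times in the Beagle pituitary. C1QA stood at 1.24 to 1.41 times C1QB in all 8 libraries.

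CD163, the haemoglobin scavenger (ENSCAFG00000013968, chromosome 27, 37669630 to 37700814), read 67.2 FPKM in the stressed and 93.0 FPKM in the unexposed adrenal cortex of the Chinese Field Dog, against 44.3 and 42.5 FPKM in the Beagle adrenal cortex. Its pituitary levels were 4.19 FPKM in the stressed and 9.18 FPKM in the unexposed Chinese Field Dog, against 3.68 and 5.45 FPKM in the Beagle. The breeds were apart in the adrenal cortex and overlapped in the pituitary. CD163 is a scavenger receptor like MARCO, and its adrenal read ratios between the breeds, Chinese Field Dog over Beagle, were 1.53 (1.46 to 1.62) under stress and 2.22 (2.11 to 2.33) without exposure.

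CSF1R, the growth factor receptor (ENSCAFG00000018219, chromosome 4, 58980576 to 59055356), had the smallest breed difference of the 9 genes in the adrenal cortex (0.04 on the log2 scale), while in the pituitary its 0.65 exceeded those of CD163 and VSIG4. It read 23.7 FPKM in the stressed and 31.0 FPKM in the unexposed adrenal cortex of the Chinese Field Dog, against 27.7 and 25.3 FPKM in the Beagle adrenal cortex. Its pituitary levels were 26.0 and 26.8 FPKM in the stressed and unexposed Chinese Field Dog, against 18.8 and 14.5 FPKM in the Beagle. The breeds did not overlap in the pituitary. Their adrenal values overlapped, with a read ratio below 1 under stress (0.858, 0.791 to 0.932) and above 1 without exposure (1.23, 1.14 to 1.33). The deposited locus of CSF1R is shared with a second gene, and its reads may not be cleanly divided between them.

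For VSIG4 the breed difference in the pituitary, 0.36, was the lowest of the 9 genes there. VSIG4 (ENSCAFG00000016623, chromosome X, 50843007 to 50881664) read 48.0 and 38.7 FPKM in the stressed and unexposed Chinese Field Dog adrenal cortex, against 32.4 and 31.6 FPKM in the Beagle, and 10.8 and 14.6 FPKM in the Chinese Field Dog pituitary, against 10.6 and 8.59 FPKM in the Beagle. CD68 (ENSCAFG00000016641) read 11.97 and 16.1 FPKM in the stressed and unexposed Chinese Field Dog adrenal cortex, against 10.9 and 14.9 FPKM in the Beagle, and 10.2 and 8.39 FPKM in the Chinese Field Dog pituitary, against 4.66 and 6.04 FPKM in the Beagle. VSIG4 did not overlap between the breeds in either gland. Its stressed pituitary pair was near level, with a read ratio, Chinese Field Dog over Beagle, of 1.03 (0.845 to 1.25). CD68 overlapped in the adrenal cortex. CD68 shares its deposited locus on chromosome 5, 32473595 to 32594414, with another 16 of the 17 genes listed there, so its counts are uncertain.

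**Figure D2:**
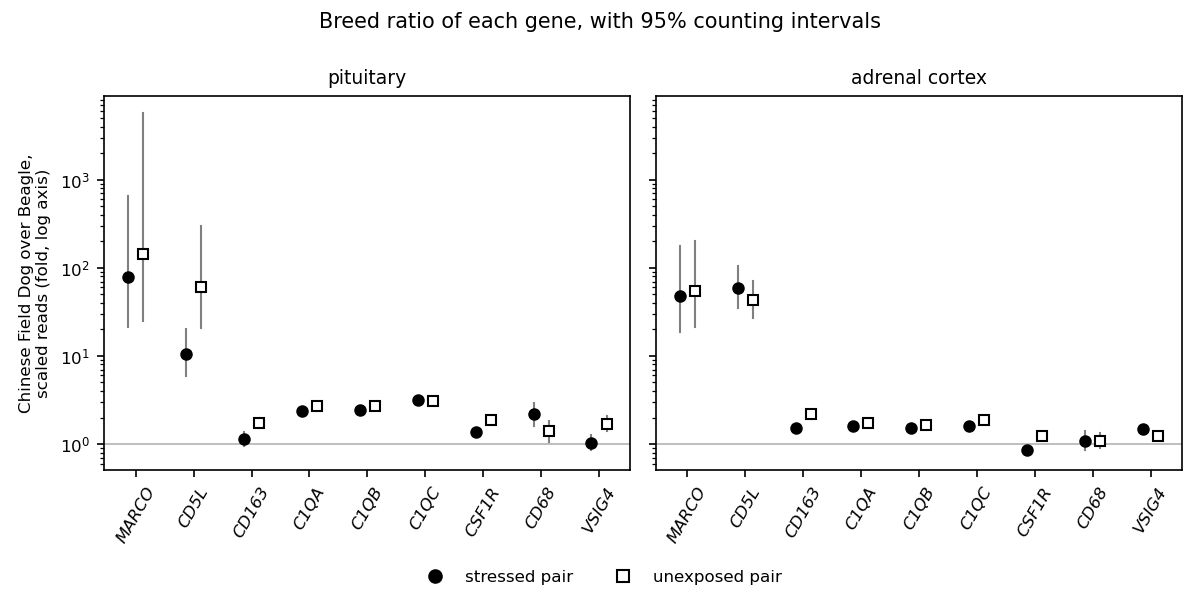
Read ratio of Chinese Field Dog over Beagle for each gene, gland and exposure on a log axis, with 95% counting intervals as bars. MARCO and CD5L lie between 10.5 and 142, and the other 7 genes lie between 0.858 and 3.14.

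Set against the other macrophage genes of the same library, MARCO and CD5L kept the breed difference. Per 1000 reads of the 7 other genes together, MARCO had 7.76 reads in the stressed and 9.62 in the unexposed adrenal cortex of the Chinese Field Dog, against 0.241 and 0.309 in the Beagle adrenal cortex, and 13.9 and 15.3 in the Chinese Field Dog pituitary, against 0.396 and 0.263 in the Beagle pituitary. CD5L had 35.1 and 35.7 reads per 1000 in the stressed and unexposed Chinese Field Dog adrenal cortex, against 0.905 and 1.47 in the Beagle, and 12.1 and 19.6 in the Chinese Field Dog pituitary, against 2.58 and 0.788 in the Beagle. In each pair the Chinese Field Dog share lay above the Beagle share.

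For MARCO and CD5L together, this share was higher in the Chinese Field Dog than in the Beagle by 37.4-fold (23.8 to 62.5) in the stressed and 25.5-fold (16.9 to 40.4) in the unexposed adrenal cortex. In the pituitary it was higher by 8.75-fold (5.21 to 15.9) under stress and 33.2-fold (12.9 to 123) without exposure. The C1q genes made up 64.6% to 81.8% of the reads of the 7 genes. With the C1q genes removed, an alternative chosen after seeing the data, the folds were 42.7 and 25.4 in the stressed and unexposed adrenal cortex and 14.7 and 45.8 in the stressed and unexposed pituitary.

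**Figure D3:**
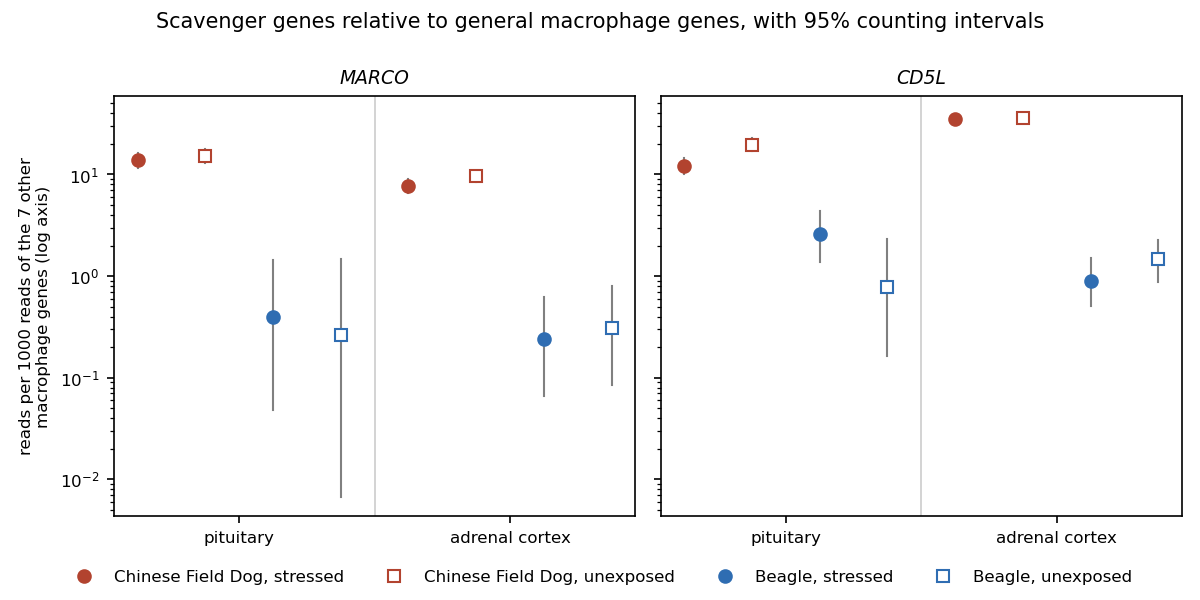
Reads of MARCO and of CD5L per 1000 reads of the other 7 macrophage genes in each library, on a log axis with 95% counting intervals. The Chinese Field Dog libraries lie between 7.76 and 35.7, and the Beagle libraries between 0.241 and 2.58.

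The balance of MARCO to CD5L differed between the glands of the Chinese Field Dog. The ratio of their FPKM was 2.08 in the stressed and 1.44 in the unexposed Chinese Field Dog pituitary, against 0.378 and 0.458 in the adrenal cortex. MARCO was the higher of the pair in both pituitary libraries and CD5L the higher in both adrenal libraries. In the Beagle the ratio was 0.252 and 0.562 in the stressed and unexposed pituitary and 0.543 and 0.359 in the adrenal cortex, on 1 to 4 reads of MARCO per library, and no order can be read from it.

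Between the glands, most of the general macrophage genes were lower in the pituitary. With the 4 pairs of breed and exposure as blocks, limma called 6 of the 9 genes at an adjusted p under 0.05, all lower in the pituitary, where 58.7% of all genes were called, 30.2% lower and 28.4% higher. CD163 had the largest difference, with 3.68 to 9.18 FPKM (median 4.82) in the 4 pituitary libraries and 42.5 to 93.0 FPKM (median 55.7) in the 4 adrenal libraries. It fell by 3.24 on the log2 scale (SE 0.17, limma adjusted p 0.00026). The glands were far apart in every pair, with read ratios, pituitary over adrenal cortex, of 0.0620 to 0.128.

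The resident macrophage receptor VSIG4 fell by 1.67 on the log2 scale (SE 0.14, limma adjusted p 0.000805), with 8.59 to 14.6 FPKM in the pituitary and 31.6 to 48.0 FPKM in the adrenal cortex. Among the C1q genes, C1QC fell by 1.79 (SE 0.20, limma adjusted p 0.00186), C1QB by 1.54 (SE 0.18, limma adjusted p 0.00204) and C1QA by 1.43 (SE 0.16, limma adjusted p 0.00177). CD68 fell by 0.83 (SE 0.18, limma adjusted p 0.0154), with 4.66 to 10.2 FPKM in the pituitary and 10.9 to 16.1 FPKM in the adrenal cortex. These 6 genes had all 4 pituitary libraries below all 4 adrenal libraries, as 29.5% of all genes did. The CD68 call was lost without the unexposed Beagle pair (limma adjusted p 0.0586), without the stressed Beagle pair (0.0689) and without the unexposed Chinese Field Dog pair (0.0664), in a range of 0.00266 to 0.0689 over all alternatives.

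CSF1R did not pass the test between the glands (log2 difference -0.34, SE 0.17, limma adjusted p 0.139), with 14.5 to 26.8 FPKM in the pituitary and 23.7 to 31.0 FPKM in the adrenal cortex. Without the stressed Chinese Field Dog pair limma gave an adjusted p of 0.03999, in a range of 0.03999 to 0.356 over all alternatives. The ratio of CD163 to CSF1R in FPKM was 0.161 to 0.377 in the 4 pituitary libraries and 1.60 to 3.002 in the 4 adrenal libraries, with no overlap.

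MARCO and CD5L did not pass between the glands on the log2(FPKM + 1) scale. MARCO had a log2 difference of -0.36 (SE 0.13, limma adjusted p 0.0651) and CD5L of -1.32 (SE 0.49, limma adjusted p 0.0723). These calls depended on how low values were treated: with 0.1 in place of 1 added to FPKM, limma gave an adjusted p of 0.0105 for MARCO and 0.0358 for CD5L, and edgeR on recovered reads gave 0.0441 for MARCO and 0.00534 for CD5L. DESeq2 called CD5L (adjusted p 7.81e-06) and not MARCO, and limma called CD5L without the stressed Beagle pair (0.049996). Over all alternatives the adjusted p ran from 0.0105 to 0.773 for MARCO and from 7.81e-06 to 0.327 for CD5L.

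For CD5L the Chinese Field Dog pairs carried large and countable differences. The read ratio, pituitary over adrenal cortex, was 0.143 (0.117 to 0.173) in the stressed and 0.193 (0.164 to 0.225) in the unexposed Chinese Field Dog. In the Beagle it was 0.791 (0.347 to 1.78) under stress and 0.135 (0.0255 to 0.457) without exposure. For MARCO the ratio was 0.741 (0.588 to 0.932) in the stressed and 0.555 (0.451 to 0.681) in the unexposed Chinese Field Dog. The Beagle ratios of MARCO were 0.457 (0.0413 to 3.19) under stress and 0.213 (0.00433 to 2.15) without exposure. They rest on 1 to 4 reads per library, and no direction can be read from them.

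**Figure D4:**
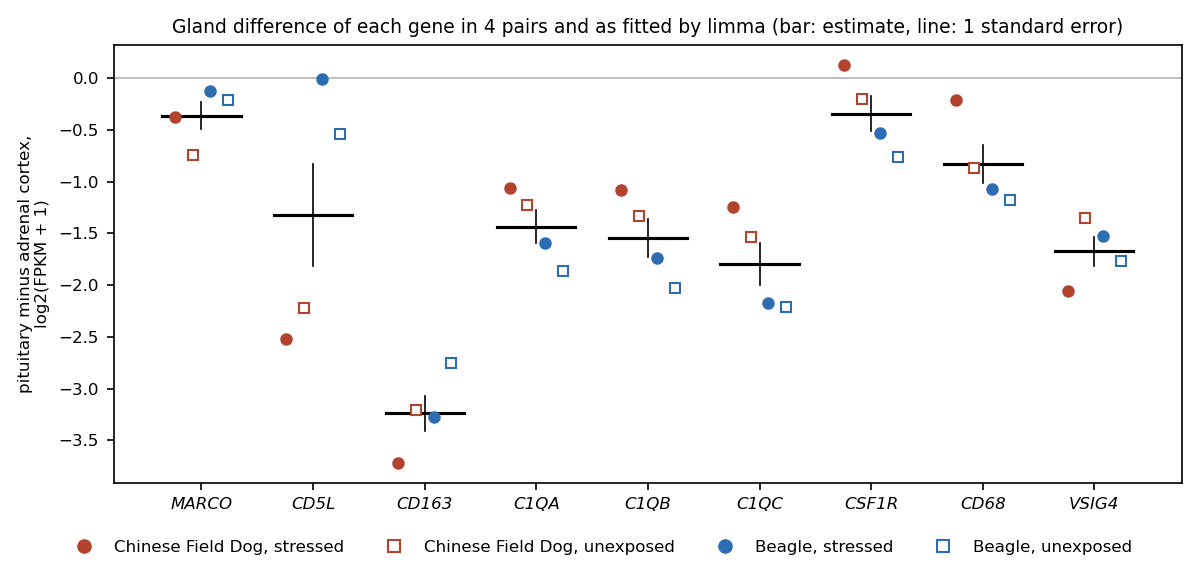
Pituitary minus adrenal cortex difference of log2(FPKM + 1) for the 9 genes, with the 4 pairs of breed and exposure as points and the limma estimate with its standard error. CD163 lies lowest at -3.24, and CSF1R and MARCO lie closest to 0 at -0.34 and -0.36.

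Stress exposure changed none of the 9 genes past the test in either gland. With the breeds as replicates, limma called 0 of the 9 in the adrenal cortex and 0 in the pituitary, where 0.00675% of all genes were called in each gland (1 of 14808). edgeR and DESeq2 on recovered reads also called none of the 9. At an unadjusted p under 0.05, limma had 441 genes in the adrenal cortex (2.98%) and 662 in the pituitary (4.47%). For the difference of the stress effect between the glands, limma called 0 of the 9, against 0.0135% of all genes, with 525 genes (3.55%) at an unadjusted p under 0.05.

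In the pituitary the largest stress values among the members belonged to CD163 and the C1q genes. CD163 read 4.19 FPKM in the stressed and 9.18 FPKM in the unexposed Chinese Field Dog pituitary, and 3.68 FPKM in the stressed and 5.45 FPKM in the unexposed Beagle pituitary. Its log2 difference was -0.72 (SE 0.22, limma unadjusted p 0.0301, adjusted p 0.881), lower under stress in 2 of 2 breeds. C1QB had 0.43 (SE 0.13, limma unadjusted p 0.0298, adjusted p 0.881) and C1QA 0.42 (SE 0.13, limma unadjusted p 0.0351, adjusted p 0.881), both higher under stress in 2 of 2 breeds. These 2 genes and CD163 thus stood on opposite sides of 0, and none passed the correction.

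The C1q genes were higher in the stressed library of both breeds in both glands. With VSIG4, which was higher in the adrenal cortex only by this count, that made 4 of the 7 general genes in the adrenal cortex, where 25.5% of all genes were higher in both breeds, and 3 of the 7 in the pituitary, where 22.3% were. MARCO and CD5L were lower in the stressed adrenal cortex of both breeds (25.6% of all genes were), with log2 differences of -0.16 (SE 0.14) and -0.14 (SE 0.21) at a limma adjusted p of 1. Only MARCO in the Chinese Field Dog was lower beyond counting error (read ratio, stressed over unexposed, 0.796, 0.652 to 0.968). The Beagle held 4 and 4 reads of MARCO, and the CD5L ratio was 0.971 (0.882 to 1.07) in the Chinese Field Dog and 0.710 (0.336 to 1.47) in the Beagle. In the pituitary MARCO had 0.07 (SE 0.14, limma adjusted p 0.948) and CD5L -0.02 (SE 0.21, limma adjusted p 0.995). The sign for CD5L in the pituitary was positive by edgeR (0.06) and DESeq2 (0.34) and with 0.1 added to FPKM (0.45), so that no direction holds for it. Most hepatocyte genes moved with exposure in the adrenal cortex: the 9 listed genes summed to 516 FPKM in the stressed and 291 FPKM in the unexposed Chinese Field Dog, and to 625 and 397 FPKM in the stressed and unexposed Beagle, with 0 of 9 at 0 in either stressed library and 2 and 4 of 9 at 0 in the unexposed ones. APOA1 made up most of each sum, at 379 and 267 FPKM in the stressed and unexposed Chinese Field Dog and 539 and 354 FPKM in the Beagle. SERPINA1 was lower under stress in the Chinese Field Dog (10.7 against 14.3 FPKM), and FGG was near level in the Beagle (41.5 against 38.4 FPKM). The albumin gene ALB held 288 reads in the stressed and 5 in the unexposed Chinese Field Dog, and 1014 and 26 in the stressed and unexposed Beagle. The median log2 difference of the 5 hepatocyte genes that passed the filter was 1.71, with no limma call, and their part in the adrenal stress values was not tested. The forebrain genes were counted in 1 Chinese Field Dog pituitary, the stressed one. That library enters each pituitary stress value, the pituitary breed values and the gland differences, and the part of the forebrain genes in them was not tested.

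**Figure D5:**
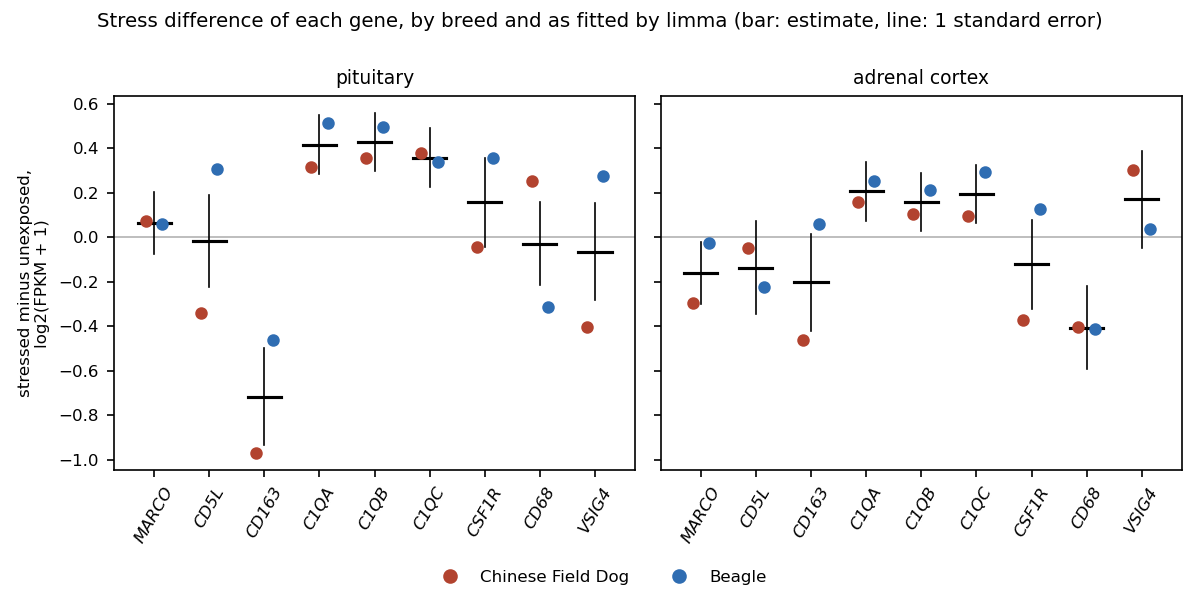
Stressed minus unexposed difference of log2(FPKM + 1) for the 9 genes in each gland, with the 2 breeds as points and the limma estimate with its standard error. In the pituitary CD163 lies at -0.72 and the C1q genes between 0.36 and 0.43, none past the correction.

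Most other macrophage genes stood higher in Chinese Field Dog libraries, by less than MARCO and CD5L. Of 20 such genes named, 16 were matched and passed the filter, and their median breed difference on the log2 scale was 0.57 in the adrenal cortex and 0.80 in the pituitary, with both Chinese Field Dog libraries above both Beagle libraries for 12 of 16 in each gland, against 18.1% of all genes in the adrenal cortex and 16.3% in the pituitary. The largest adrenal difference was 1.34 for SLC11A1, the phagosomal metal transporter, with 13.7 and 25.9 FPKM in the stressed and unexposed Chinese Field Dog and 4.96 and 9.37 FPKM in the Beagle. FCGR1A, the high-affinity IgG receptor, had 0.91. GPNMB, a lysosomal glycoprotein of lipid-laden macrophages, ran the other way, with 45.9 and 38.2 FPKM in the stressed and unexposed Chinese Field Dog adrenal cortex and 61.3 and 117 FPKM in the Beagle.

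Between the glands limma called 12 of these 16 lower in the pituitary and none higher (30.2% and 28.4% of all genes), with a median log2 difference of -0.69. GPNMB fell by 4.59 (SE 0.25, limma adjusted p 0.000281), the lysosomal protease gene CTSS by 1.40 (SE 0.16, 0.00190) and the lysozyme gene LYZ by 1.16 (SE 0.18, 0.00473). LAPTM5, a lysosomal membrane protein of blood cells, did not pass, with a log2 difference of 0.00 (limma adjusted p 0.995). The count of 12 was 7 without the unexposed Chinese Field Dog pair and 6 without the blocks.

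Among genes of resident macrophages of spleen and liver, TIMD4 and CD209 had the largest breed differences of those that passed the filter, in each gland. Of 15 such genes matched, 11 passed the filter, with a median breed difference of 0.11 in the adrenal cortex and 0.29 in the pituitary, and 5 of the 11 in the adrenal cortex and 7 in the pituitary had both Chinese Field Dog libraries above both Beagle libraries, against 18.1% and 16.3% of all genes. TIMD4, the phosphatidylserine receptor of resident macrophages, read 53.2 and 59.9 FPKM in the stressed and unexposed Chinese Field Dog adrenal cortex, against 29.7 and 24.8 FPKM in the Beagle, and 13.4 and 14.5 FPKM in the Chinese Field Dog pituitary, against 5.60 and 4.75 FPKM in the Beagle. CD209, a C-type lectin, read 76.5 and 65.7 FPKM in the Chinese Field Dog adrenal cortex, against 29.2 and 24.3 FPKM in the Beagle, and 3.15 and 1.86 FPKM in the Chinese Field Dog pituitary, against 0.331 and 1.02 FPKM in the Beagle. Both genes separated the breeds in each gland, with breed differences of 1.03 and 1.28 for TIMD4 and 1.38 and 1.07 for CD209 in the adrenal cortex and pituitary.

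SPIC, the transcription factor of red pulp macrophages in mice, failed the filter on low values. It held 72 and 165 reads in the stressed and unexposed Chinese Field Dog adrenal cortex, against 5 and 7 in the Beagle adrenal cortex, and 1 and 2 reads in the Chinese Field Dog pituitary, against 0 and 0 in the Beagle pituitary. It followed MARCO and CD5L in the adrenal cortex, whereas in the pituitary, where MARCO held 142 and 146 reads in the Chinese Field Dog, SPIC was at or under the floor of 3 reads in all 4 libraries. The adrenal breed differences of the other 9 genes of the list that passed the filter ran from -0.25 for ID3 to 0.80 for HMOX1, the haem-degrading enzyme, with 0.60 for the hyaluronan receptor gene LYVE1, 0.22 for the iron exporter gene SLC40A1, 0.10 for the nuclear receptor gene NR1H3 and -0.13 for the sialic-acid receptor gene SIGLEC1.

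Between the glands limma called 7 of the 11 lower and 2 higher in the pituitary, against 30.2% of all genes lower and 28.4% higher. CD209 fell by 4.23 (SE 0.18, limma adjusted p 0.000167), SLC40A1 by 3.26 (SE 0.08, 7.83e-05), NR1H3 by 2.56 (SE 0.10, 0.000134) and TIMD4 by 2.07 (SE 0.09, 0.000183). The adhesion molecule gene VCAM1 was higher in the pituitary by 1.52 (SE 0.16, limma adjusted p 0.00151) and the helix-loop-helix gene ID3 by 0.78 (SE 0.21, 0.0285). NR1H3, SLC40A1, VCAM1 and ID3 are also expressed by cells other than macrophages.

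Other scavenger receptor genes had smaller breed differences than MARCO and CD5L. Among those that passed the filter, the pituitary differences ran from -0.52 for CD36 to 0.69 for CD5. Of 15 matched, 12 passed the filter, with a median breed difference of -0.03 in the adrenal cortex and 0.24 in the pituitary, and 2 of the 12 in the adrenal cortex and 5 in the pituitary had both Chinese Field Dog libraries above both Beagle libraries, against 18.1% and 16.3% of all genes. MSR1, the class A scavenger receptor related to MARCO, read 13.4 and 15.9 FPKM in the stressed and unexposed Chinese Field Dog adrenal cortex, against 11.4 and 11.1 FPKM in the Beagle, and 7.33 and 6.57 FPKM in the Chinese Field Dog pituitary, against 4.41 and 3.59 FPKM in the Beagle. Its breed differences of 0.35 and 0.67 lay among those of the general macrophage genes. SSC5D, a secreted protein with the same kind of domain as CD5L, had -0.40 in the adrenal cortex and -0.43 in the pituitary. CD5, which also has this kind of domain, went the other way, with 0.21 and 0.69. Between the glands 9 of the 12 were called lower in the pituitary and 1 higher (30.2% and 28.4% of all genes), and the lipoprotein receptor gene SCARB1, which supplies cholesterol to steroid-making cells, fell by 5.44 (SE 0.10, limma adjusted p 7.23e-05).

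Ligands and partners of the members were measured for 11 of 12 genes. CSF1 and IL34, the ligands of CSF1R, were both lower in the pituitary, by 1.18 (SE 0.19, limma adjusted p 0.00544) and 1.56 (SE 0.17, 0.00179), while CSF1R itself did not pass. C1R and C1S, the proteases that join C1q, did not pass (log2 differences of -0.20 and 0.28, limma adjusted p 0.329 and 0.182). SERPING1, their inhibitor, fell by 2.33 (SE 0.10, limma adjusted p 0.000174), and C3 was higher in the pituitary by 1.56 (SE 0.27, 0.00724). In all, 6 of the 11 were called lower and 2 higher in the pituitary, where 30.2% of all genes were lower and 28.4% higher. Their median breed difference was 0.18 in the adrenal cortex and 0.40 in the pituitary. Limma called none of the genes of these 4 lists under stress in either gland.

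Genes of T and natural killer cells moved with the breed. Of the 9 T and natural killer cell genes, 8 passed the filter, and both Chinese Field Dog libraries lay above both Beagle libraries for 8 of 8 in the adrenal cortex and 7 of 8 in the pituitary (18.1% and 16.3% of all genes), with median breed differences of 0.93 and 1.51. These counts and medians include NKG7, with a breed difference of 4.42 in the adrenal cortex and 0 in the pituitary. CD3G and CD8A read at most 0.288 and 0.628 FPKM in the Beagle libraries, and NKG7 read 0 there. CD3G, CD8A and NKG7 thus passed the filter only through the Chinese Field Dog libraries, so the counts and medians are partly set by the filter. Without NKG7, whose level rests on 1 read in each Chinese Field Dog adrenal library, the other 8 genes summed to 33.2 and 34.2 FPKM in the stressed and unexposed Chinese Field Dog adrenal cortex, against 5.18 and 10.4 FPKM in the Beagle, and to 79.5 and 43.3 FPKM in the Chinese Field Dog pituitary, against 5.40 and 5.73 FPKM in the Beagle, with none of the 8 at 0 in any library. GZMB, a cytotoxic granule protease, read 16.4 and 20.5 FPKM in the stressed and unexposed Chinese Field Dog adrenal cortex, against 0.772 and 2.74 FPKM in the Beagle, and 30.7 and 26.9 FPKM in the Chinese Field Dog pituitary, against 1.10 and 1.13 FPKM in the Beagle. The T-cell receptor subunit gene CD3E was lower in level, at 2.58 to 12.8 FPKM in the Chinese Field Dog libraries and 0.318 to 1.32 FPKM in the Beagle libraries. The part of these cells in the MARCO and CD5L values was not tested.

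Other cell types were examined in the same way. The 5 medulla genes summed to 3158 and 3416 FPKM in the stressed and unexposed Chinese Field Dog adrenal cortex, against 4651 and 5482 FPKM in the Beagle. None of the 5 was at 0. Their median adrenal breed difference was -0.68 on the log2 scale, against -0.02 for all genes that passed the filter. The part of this in the adrenal breed values was not tested. B-cell genes summed to 2.98 to 10.2 FPKM in the Chinese Field Dog and 2.37 to 7.28 FPKM in the Beagle libraries, and erythroid genes to 3.31 to 4.60 FPKM in the Chinese Field Dog and 4.23 to 7.62 FPKM in the Beagle libraries. Neutrophil genes summed to 14.4 to 18.0 FPKM in the Chinese Field Dog and 9.85 to 13.6 FPKM in the Beagle adrenal cortex, and to 27.2 to 46.8 FPKM in the Chinese Field Dog and 41.2 to 69.9 FPKM in the Beagle pituitary. Hepatocyte genes summed to 289 to 516 FPKM in the Chinese Field Dog and 327 to 625 FPKM in the Beagle libraries, with ranges that overlap between the breeds in each gland and higher sums in the stressed library of each breed and gland. In the pituitary these sums were nearly all APOA1, at 452 and 283 FPKM in the stressed and unexposed Chinese Field Dog and 358 and 319 FPKM in the Beagle. SERPINA1 ran the other way there, at 5.29 and 5.66 FPKM in the Chinese Field Dog and 2.99 and 7.46 FPKM in the Beagle. Between 3 and 5 of the 9 genes were at 0 in each pituitary library. The microglia list did not separate the breeds in the pituitary, at 108 FPKM in both Chinese Field Dog pituitaries against 95.1 and 116 FPKM in the Beagle, although P2RY12, a purine receptor of microglia, read 4.74 FPKM in the stressed Chinese Field Dog pituitary, against 1.09 to 1.84 FPKM in the other 3.

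The genes whose pattern over the 8 libraries was most like that of MARCO and CD5L were found by Pearson's r on log2(FPKM + 1), among 12520 genes with a symbol used once and a mean of at least 1 FPKM. They were REEP6 (r = 0.977), GPR65 (0.972), ZBTB3 (0.971), NTAN1 (0.962), FCGR1A (0.960), CASP8 (0.959), AOAH (0.957), DLA-64 (0.952), PSMB9 (0.943) and SYCE1 (0.942). The 8 points share the split by breed, which alone can give a high r, and the genes were picked for it, so r is a description. Their breed differences in the adrenal cortex, 0.41 to 1.15 on the log2 scale, were below the 3.03 of MARCO. GPR65 read 6.61 and 7.10 FPKM in the stressed and unexposed Chinese Field Dog adrenal cortex, against 3.14 and 2.48 FPKM in the Beagle, and DLA-64, a dog class I antigen gene, read 606 and 886 FPKM, against 351 and 397 FPKM.

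For the other 7 genes, taken as the mean of their standardised values, the nearest genes were MSR1 (r = 0.995), CTSS (0.992), GPR133 (0.992), BPI (0.989), TIMD4 (0.989), PRKCD (0.989), ARPC1B (0.983), CAPG (0.982), ETS1 (0.9797) and PCYT1A (0.977), with both glands and breeds in the points. None of the 10 was among the 10 nearest to MARCO and CD5L. All 10 combined a lower mean level in the pituitary with a higher mean level in the Chinese Field Dog in each gland, the pattern they were picked for. Their breed differences ran from 0.04 for ETS1 to 1.03 for TIMD4 in the adrenal cortex. In the pituitary they ran from 0.21 for ETS1 to 1.28 for TIMD4. BPI, a bactericidal protein, read 20.9 and 23.3 FPKM in the stressed and unexposed Chinese Field Dog pituitary and 70.5 and 89.8 FPKM in the adrenal cortex, and 9.27 and 8.64 FPKM in the Beagle pituitary and 61.8 and 58.7 FPKM in the Beagle adrenal cortex.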

How the data were processed

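Libraries were prepared with the TruSeq kit from Trizol RNA, per the labels' protocols. Reads were aligned with TopHat (version not given) to CanFam3.1, per the submitters' processing notes, and the counting program is not given in the sources used here. The deposited FPKM values carry the authors' length and depth correction, with no record of pooled samples. The deposited scaled counts, treated as a signal, are whole multiples of 1 step per library, and between 98.6% and 99.1% of values came out whole within 0.02 when divided by it. The recovered reads are therefore estimates in every library. In 2 stressed libraries, Beagle adrenal cortex and Chinese Field Dog pituitary, the step is near 1 (1.01 and 1.02), with 98.6% and 99.0% of values whole. Intervals are 95% Clopper-Pearson intervals on reads.

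The 14808 genes averaging at least 1 FPKM entered limma 3.58.1 (R 4.3.3) as log2(FPKM + 1), with Benjamini-Hochberg adjustment over all genes at 0.05. The stress fit used all 8 libraries with an intercept, a breed and a stress term per gland (2 residual degrees of freedom). The gland fit used the 4 pairs as blocks (3 residual degrees of freedom). Each combination has 1 library, so p-values reflect the spread between single libraries, which may be technical. Alternatives were a pseudocount of 0.1, no filter, TMM scaling, edgeR 4.0.16 and DESeq2 1.42.0 on recovered reads, each pair left out, and no blocks. The tests were tried on simulated data. Members and lists were chosen with earlier results of these data known. Named genes are the members, list genes past the test or highest in mean FPKM, and the 10 nearest patterns. Other list genes named, SPIC, SLC11A1, SIGLEC1, SSC5D, C1R, C1S, LAPTM5, P2RY12, NKG7, GZMB and CD3E among them, were chosen after their values were seen.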

Additional observations from a re-analysis of the deposited data

How the results depend on the processing

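The counts of members called did not change in the stress contrasts (0 of 9) and ranged from 5 to 8 of 9 in the gland contrast. Over all genes, the stress count in the adrenal cortex, 1 by limma, was 4 with a pseudocount of 0.1, 0 without the filter, 2 with TMM, 10 by DESeq2 and 0 by edgeR (524 below an unadjusted p of 0.05), and 23 to 26 when a breed pair was left out. In the pituitary, 1 by limma, it was 0 by edgeR (784 unadjusted), 64 by DESeq2 and 41 to 44 with a pair left out. For the difference between glands, 2 by limma, it was 5 with a pseudocount of 0.1, 1 without the filter, 0 by edgeR (705 unadjusted), 25 by DESeq2 and 0 to 34 with a pair left out. A fit without one pair takes its spread from the other gland. The cause was not tested.

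The mean breed difference of MARCO and CD5L was 5.13 in the adrenal cortex and 4.40 in the pituitary with a pseudocount of 0.1, by construction larger for low values. The pituitary median of the other 7 genes was 0.85 without the stressed and 0.98 without the unexposed pair. Stress differences, none past the threshold, changed sign as follows. Without the Beagle pair and without the Chinese Field Dog pair, the adrenal differences were -0.464 and 0.0603 for CD163 and -0.371 and 0.127 for CSF1R. The pituitary differences were -0.342 and 0.308 for CD5L, -0.0424 and 0.359 for CSF1R, 0.254 and -0.313 for CD68, and -0.403 and 0.275 for VSIG4. For CD5L in the pituitary they were 0.449 with a pseudocount of 0.1, 0.0598 by edgeR and 0.336 by DESeq2. For the stress effect in the pituitary minus that in the adrenal cortex they were -0.206 and 0.444 for CD5L and -0.574 and 0.104 for VSIG4, without the Beagle and without the Chinese Field Dog pituitary pair.

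The gland fit pairs libraries by breed and exposure, and without these blocks it also called 6 of the 9 genes. By replicate number, no paired analysis was possible because the numbers in the titles mark the exposure and each combination has 1 library. Depth limits the Beagle values of MARCO, at 1 to 4 reads.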

Other observations

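CD5, a scavenger-receptor cysteine-rich protein known from T cells, was higher in every adrenal library than the T-cell receptor subunit gene CD3E. It read 29.7 and 25.3 FPKM in the stressed and unexposed cortex of the Chinese Field Dog and 28.8 and 19.4 FPKM in the Beagle, against CD3E at 2.94 and 2.58 FPKM in the Chinese Field Dog and 0.318 and 1.32 FPKM in the Beagle. GZMB of the T and natural killer cell list was closer to CD5 in the Chinese Field Dog, at 16.4 and 20.5 FPKM, than in the Beagle, at 0.772 and 2.74 FPKM. In the pituitary CD5 read 4.10 and 2.49 FPKM in the stressed and unexposed Chinese Field Dog and 1.55 and 1.70 FPKM in the Beagle, a fall of 2.99 relative to the adrenal cortex on the log2 scale (SE 0.17, limma adjusted p 0.000329).

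The haptoglobin gene HP, whose product carries haemoglobin to CD163, read 52.5 FPKM in the stressed and 9.13 FPKM in the unexposed adrenal cortex of the Chinese Field Dog, and 7.70 FPKM in the stressed and 26.3 FPKM in the unexposed Beagle adrenal cortex, with opposite directions in the breeds. In the pituitary HP read 0.258 to 0.422 FPKM in all 4 libraries.

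SALL1, a transcription factor of microglia in mice that other cells also express, read 6.23 and 8.53 FPKM in the stressed and unexposed Chinese Field Dog pituitary and 9.12 and 8.04 FPKM in the Beagle pituitary, against 0 to 0.0625 FPKM in the adrenal libraries.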
